A study of Mus musculus with 6 samples.

Results

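Simple epithelial keratins, claudins and the epithelial transcription factor Elf3 were followed in isolated mouse islets exposed to cisplatin. The genes were Elf3, the keratin genes Krt7, Krt8, Krt18 and Krt19, the claudin genes Cldn3, Cldn4 and Cldn7, and Spp1, which codes for the secreted protein osteopontin. They were chosen from earlier results of these same libraries, in which Elf3, Krt8, Krt18 and Cldn4 had higher values with cisplatin, so their cisplatin against vehicle values are given as a description and not as a test. These 9 genes of 21400 had 15 probe rows of 30146 in the deposited count table. Of those, 11 rows for 7 genes had enough counts to enter the fit of 9381 rows, and the 4 others are given as counts.

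Gene expression was measured with TempO-Seq, in which pairs of detector oligonucleotides are ligated on the RNA of a lysate and counted by sequencing. Islets, the endocrine cell clusters of the pancreas, came from 3 wild type male C57Bl/6 mice whose age is not given in the labels. The islets of each mouse were divided and kept for 48 h with cisplatin at 10 uM, a platinum compound that crosslinks DNA, or with 0.9% saline as the vehicle. All 6 libraries share strain, sex and culture time, and each mouse gave 1 cisplatin and 1 vehicle library. Islets hold several cell types, and in such bulk lysates fewer cells of a type and less RNA per cell cannot be told apart.

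Keratins build intermediate filaments from obligate pairs of a type II chain, such as keratin 7 or 8, and a type I chain, such as keratin 18 or 19. Keratins 8 and 18 are the usual pair of simple epithelia and of islet endocrine cells, while keratins 7 and 19 are widely used as markers of pancreatic ducts. Claudins are membrane proteins that seal tight junctions between epithelial cells. Elf3 is an ETS family factor of epithelia that can be induced by inflammatory signals, and osteopontin is a secreted ligand of integrins and Cd44 that duct cells and macrophages make.

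The promoters of the 5 genes with a row called higher are shown. As the genes were chosen for their rise, a motif they share is no evidence of shared control. Each window runs from 250 bases before to 50 bases after an annotated start, from RefSeq on build GRCm38.p6, and is written 5′ to 3′ along the gene's strand. Capitals mark matches on either strand to AP-1 (TGANTCA), CRE (TGACGTCA), an ETS core (GGAAG) or the NF-kappaB consensus.
Elf3, chr1:135258423-135258722, minus strand: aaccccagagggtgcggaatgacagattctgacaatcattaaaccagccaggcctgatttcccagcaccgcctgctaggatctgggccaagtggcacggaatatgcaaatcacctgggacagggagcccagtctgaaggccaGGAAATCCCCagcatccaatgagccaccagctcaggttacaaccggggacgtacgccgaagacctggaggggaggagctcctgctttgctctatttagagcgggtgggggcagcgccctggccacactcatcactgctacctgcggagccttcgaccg
Krt8, chr15:102004293-102004592, minus strand: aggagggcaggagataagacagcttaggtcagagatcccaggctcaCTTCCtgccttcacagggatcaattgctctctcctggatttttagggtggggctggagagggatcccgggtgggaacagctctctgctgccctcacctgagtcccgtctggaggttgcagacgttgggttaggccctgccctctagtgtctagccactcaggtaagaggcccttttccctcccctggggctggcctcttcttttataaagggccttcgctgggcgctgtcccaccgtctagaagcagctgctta
Krt18, chr15:102027966-102028265, plus strand: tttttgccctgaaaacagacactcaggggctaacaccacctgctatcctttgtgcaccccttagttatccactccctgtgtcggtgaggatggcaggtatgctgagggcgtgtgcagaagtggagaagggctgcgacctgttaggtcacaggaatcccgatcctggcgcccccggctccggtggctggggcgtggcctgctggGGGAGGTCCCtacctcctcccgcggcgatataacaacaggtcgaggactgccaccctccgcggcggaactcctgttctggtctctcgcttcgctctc
Cldn4, chr5:134946885-134947184, minus strand: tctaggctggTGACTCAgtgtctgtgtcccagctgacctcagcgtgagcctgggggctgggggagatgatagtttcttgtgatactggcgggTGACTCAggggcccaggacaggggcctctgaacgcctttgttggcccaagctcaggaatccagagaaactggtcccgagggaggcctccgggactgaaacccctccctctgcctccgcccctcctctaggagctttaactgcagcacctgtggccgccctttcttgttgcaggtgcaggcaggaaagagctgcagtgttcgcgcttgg
Cldn7, chr11:69965171-69965470, plus strand: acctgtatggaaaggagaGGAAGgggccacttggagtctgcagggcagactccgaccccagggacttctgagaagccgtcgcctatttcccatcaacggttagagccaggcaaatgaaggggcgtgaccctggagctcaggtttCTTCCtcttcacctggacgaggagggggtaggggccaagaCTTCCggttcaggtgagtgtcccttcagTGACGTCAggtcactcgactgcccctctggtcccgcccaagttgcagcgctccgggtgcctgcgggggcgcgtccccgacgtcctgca
The Elf3 window held an NF-kappaB match that begins 108 bases before the start. The Cldn4 window held 2 AP-1 matches, which begin 240 and 158 bases before the start, and the Cldn7 window, at the second of 2 annotated starts, held a CRE match that begins 38 bases before it. In the Krt18 window an NF-kappaB match begins 47 bases before the start, and in the Krt8 window the marked match is an ETS core. Over 32841 windows of the same length, an AP-1 match was found in 7.81%, a CRE match in 1.79%, an ETS core in 71.4% and an NF-kappaB match in 8.46%. Windows were found for 8 of the 9 genes, 10 windows in all, of which 1 held AP-1, 1 CRE, 6 ETS and 2 NF-kappaB matches. Searched as well were TATAAA, found in 13.6% of all windows and in 2 of the 10, and the p53 half-site, found in 8.36% and in 0. The marked matches do not overlap matches to another of these motifs, and the motifs and the Cldn7 window were chosen with these sequences in view. Such matches describe the letters only. In the RefSeq gene table no protein-coding gene lies between Krt8 and Krt18 on chromosome 15, and no gene lies between Cldn3 and Cldn4 on chromosome 5.

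Libraries held 1116916 to 1366829 counts with cisplatin and 1470227 to 2272276 with vehicle. The rows of the 9 genes took 0.312% to 0.496% of cisplatin counts and 0.214% to 0.247% of vehicle counts. Mitochondrially encoded rows took 28.6% of cisplatin library 3 and 0.188% to 3.11% of the other libraries. Levels are CPM, counts set to a common library total, here with TMM factors that align the libraries on the bulk of their rows. A fold change is given as log2, cisplatin minus vehicle, with its standard error. Called rows are those with a Benjamini-Hochberg adjusted p below 0.05 in edgeR's quasi-likelihood test. By that rule 6 of the 11 tested rows were called higher and 0 lower, where 11.1% of all tested rows were called higher, 13.9% lower and 25.0% either way. The median of the 11 rows was 1.73, against -0.072 over all tested rows. In 7 of the 11 rows every cisplatin library lay above every vehicle library, which held for 19.1% of all tested rows, while 43.4% of all tested rows had groups that did not overlap in either direction. Since the genes were chosen for this difference, nothing is read from these shares. When only library totals set the scale, the median of all rows was -0.54, the split of all calls moved from 1040 higher and 1304 lower to 459 and 2023, and 6 of these 11 rows were still called higher, with a median of 1.30.

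**Figure D1:**
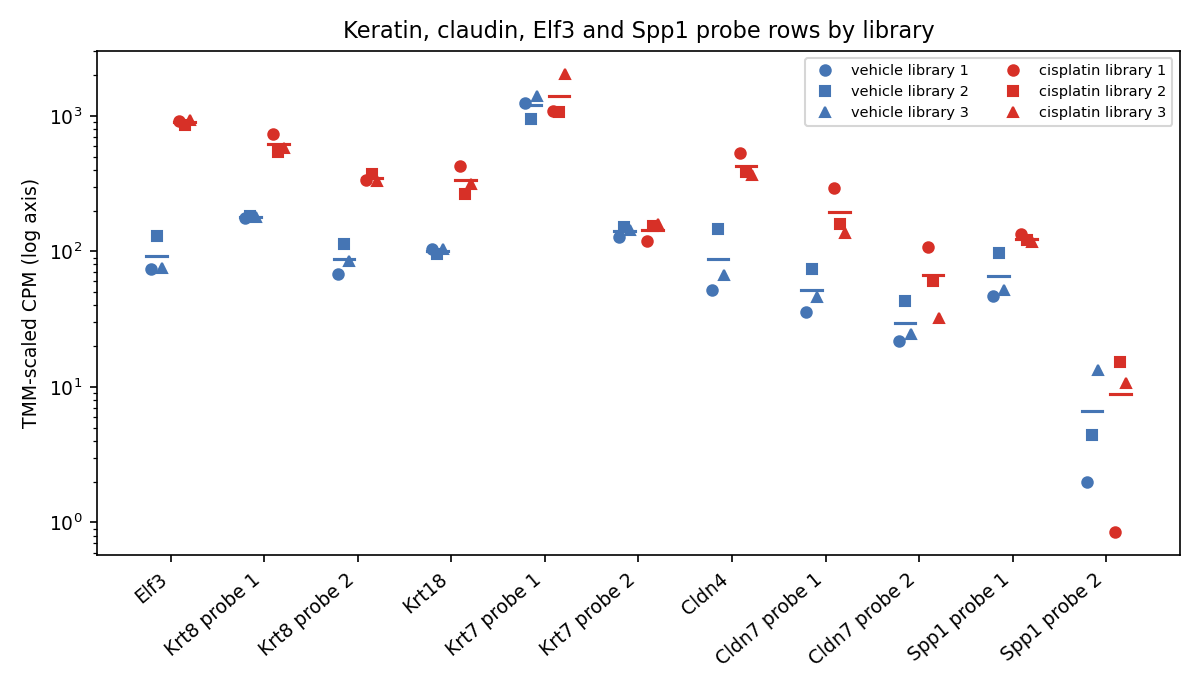
TMM-scaled CPM (log axis) of the 11 tested rows in each of the 3 vehicle (blue) and 3 cisplatin (red) libraries, with a bar at the group mean; markers show the mouse and probe 1 is the more abundant row of a gene. Elf3 lay at 849.9 to 928 CPM with cisplatin and 73.9 to 129 with vehicle, whereas the Krt7 groups overlapped.

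Elf3 showed the largest difference of the 9 genes. Its row (Elf3_60925) had 913, 849.9 and 928 CPM in cisplatin libraries 1, 2 and 3 and 73.9, 129 and 75.6 CPM in vehicle libraries 1, 2 and 3. The lowest cisplatin library was far above the highest vehicle library, which was library 2. The means were 897 ± 41.4 and 92.8 ± 31.2 CPM (SD, n = 3), a log2 fold change of 3.28 ± 0.31 or 9.70-fold. Behind them stood 2839 counts with cisplatin and 583 with vehicle. Over 20 alternative settings the log2 fold change was 2.83 to 3.61 and the row stayed called.

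Krt8, the type II chain, was more abundant in every cisplatin library by both of its probes. The more abundant probe (Krt8_65447) had 739.9, 545 and 576 CPM with cisplatin and 175, 183 and 178 with vehicle. The vehicle libraries lay close together for this row and the cisplatin libraries spread more, with library 1 highest. The means were 620.2 ± 105 and 179 ± 4.02 CPM (SD, n = 3), a log2 fold change of 1.79 ± 0.26 or 3.47-fold. The other probe (Krt8_31071) had 335, 369.8 and 331 CPM with cisplatin and 67.6, 113 and 85.0 with vehicle, a log2 fold change of 1.97 ± 0.29. Both probes differed by similar amounts, without overlap of the groups. RefSeq lists a Krt8 pseudogene, Krt8-ps, and whether its transcripts share reads with these probes cannot be told from the table.

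Krt18, the type I partner of keratin 8, differed by about as much. Its row (Krt18_29525) had 424, 266 and 312 CPM with cisplatin and 104, 95.3 and 104 with vehicle. Library 1 was again the highest of the cisplatin libraries, and the groups did not overlap. The means were 334 ± 81.0 and 101 ± 4.85 CPM (SD, n = 3), a log2 fold change of 1.73 ± 0.28 or 3.31-fold. The ratio of Krt8 to Krt18 counts within a library does not depend on the scale, and it was 1.75, 2.05 and 1.85 with cisplatin and 1.68, 1.92 and 1.72 with vehicle. The 2 groups of ratios overlapped, though within each of the 3 mice the cisplatin ratio was the higher, by a small amount. With 3 pairs this was not tested. In both groups the ratio was lowest in library 1 and highest in library 2. Each probe captures its own stretch of RNA with its own efficiency, so a ratio between genes shows change across libraries and not a ratio of molecules.

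Krt7, the other type II chain, was the most counted keratin in every library of both groups and differed little between the groups. Its abundant probe (Krt7_76598) had 1085, 1058 and 2045 CPM with cisplatin and 1242, 945 and 1395 with vehicle. The groups overlapped, and cisplatin library 3 stood highest. The means were 1396 ± 562 and 1194 ± 229 CPM (SD, n = 3), giving a log2 fold change of 0.22 ± 0.32. This turned to -0.14 when cisplatin library 3 was left out and to -0.31 with library totals alone. The second probe (Krt7_30903) had 119, 153 and 159.8 CPM with cisplatin and 127, 152 and 144 with vehicle. Its log2 fold change of 0.028 ± 0.27 turned to -0.023 or -0.035 when cisplatin library 2 or 3 was left out, and to -0.46 with library totals alone. Counted within libraries, the Krt7 probe gave 7.09, 5.16 and 7.83 counts per Krt8 count in vehicle libraries 1, 2 and 3. With cisplatin this ratio was 1.47, 1.94 and 3.55, so every cisplatin library lay below every vehicle library. Krt8 was among the genes chosen for their rise and Krt7 differed little, so a lower ratio follows from that choice. The Krt19 row (Krt19_31045), for the type I chain used as a duct marker, had 0, 1 and 1 counts with cisplatin and 2, 0 and 6 with vehicle. Its depth-scaled ratio of 0.525 had a 95% counting interval of 0.0543 to 2.63, so no difference was detectable at this depth.

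**Figure D2:**
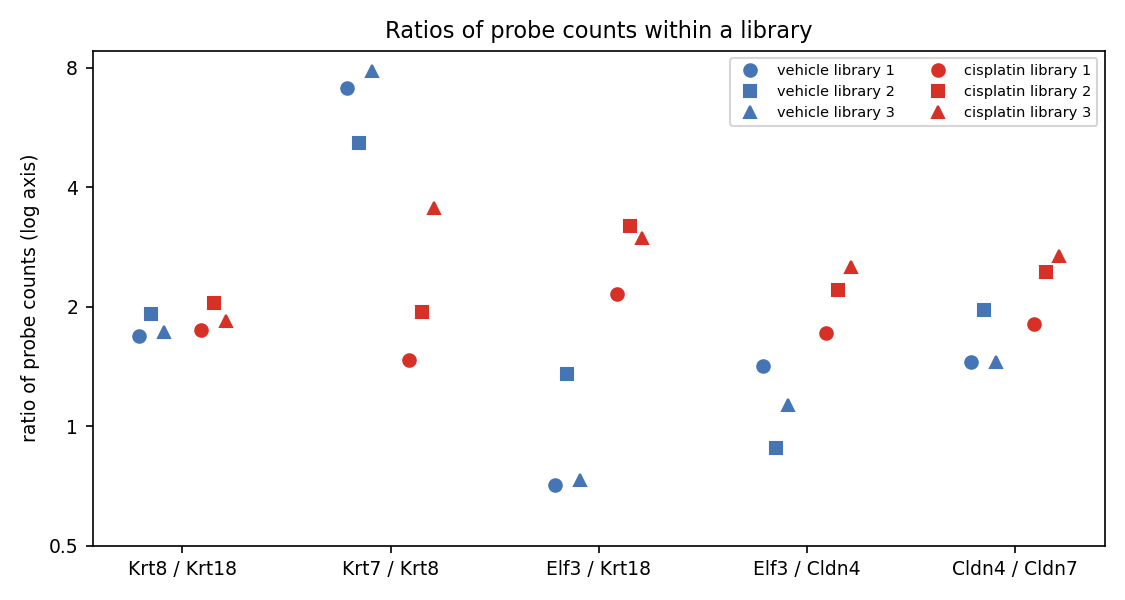
Ratios of probe counts within each library (log axis), with vehicle libraries in blue, cisplatin libraries in red and markers for the mouse. Krt8 per Krt18 overlapped at 1.68 to 1.92 with vehicle and 1.75 to 2.05 with cisplatin, whereas Krt7 per Krt8 was 5.16 to 7.83 with vehicle and 1.47 to 3.55 with cisplatin. As Krt8 was chosen for its rise, the lower Krt7 per Krt8 ratio follows from that choice.

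Among the claudins, Cldn4 and Cldn7 were higher with cisplatin, and Cldn3 was barely counted. Cldn4 (Cldn4_60997) had 534, 385 and 369 CPM with cisplatin and 52.2, 146 and 66.9 with vehicle. The groups did not overlap, though vehicle library 2 held more than the other vehicle libraries. The means were 429 ± 90.8 and 88.3 ± 50.4 CPM (SD, n = 3), a log2 fold change of 2.29 ± 0.38 or 4.89-fold. The most abundant Cldn7 probe (Cldn7_72400) had 294, 158 and 137 CPM with cisplatin and 36.0, 74.5 and 46.0 with vehicle, a log2 fold change of 1.92 ± 0.38. It was called in the reported fit and under 19 of 20 alternatives, with the exception of the fit without either library of mouse 1 (1.32). The groups did not overlap, and cisplatin library 1 was the highest.

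A second Cldn7 probe (Cldn7_30337) had 107, 60.8 and 32.2 CPM with cisplatin and 21.7, 42.9 and 24.4 with vehicle. Here cisplatin library 3 lay below vehicle library 2, the log2 fold change was 1.19 ± 0.46 and the row was not called, but it was 1.53 and called without cisplatin library 3. That fit was the only 1 of 19 alternatives to call it, and over them the value ranged from 0.50, without either library of mouse 1, to 1.60. Without cisplatin library 1 it was 0.75. The more abundant Cldn7 probe gave 1.65 to 1.89 counts per count of this probe in vehicle libraries and 2.59 to 4.27 in cisplatin libraries, so the probes of this gene did not move by the same amount. The third probe (Cldn7_70159) had 11 cisplatin and 3 vehicle counts, for a depth-scaled ratio of 7.70 with a 95% counting interval of 2.04 to 43.0. Cldn3 (Cldn3_54874) had 0, 3 and 17 counts with cisplatin and 5, 4 and 5 with vehicle. Its cisplatin counts lay almost all in library 3, and its groups overlapped.

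Spp1 differed less, and unevenly among its probes. Its abundant row (Spp1_30025) had 134, 122 and 117 CPM with cisplatin and 46.6, 97.9 and 52.0 with vehicle. The cisplatin libraries were close to each other and above all vehicle libraries, of which library 2 came nearest. The means were 124 ± 9.08 and 65.5 ± 28.2 CPM (SD, n = 3), and the log2 fold change of 0.93 ± 0.34 was not called in the reported fit. With the mouse as a block it was 1.00 and called, and without vehicle library 2 it was 1.32 and called. The probe Spp1_63793 had 0.846, 15.2 and 10.7 CPM with cisplatin and 1.98, 4.42 and 13.4 with vehicle, giving 0.41 ± 0.97. That value was -0.24 if cisplatin library 2 was left out, 1.05 if cisplatin library 1 was, 1.45 if vehicle library 3 was, and -0.15 with library totals alone. The least counted probe (Spp1_63768) had 0, 7 and 9 counts with cisplatin and 3, 2 and 15 with vehicle. In both low rows the groups overlapped.

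The difference was not the same size in the 3 mice. Within mouse 1, 2 and 3 the log2 ratio of cisplatin to vehicle was 3.61, 2.71 and 3.60 for Elf3. It was 3.32, 1.39 and 2.44 for Cldn4 and 2.99, 1.07 and 1.55 for the abundant Cldn7 probe. For the abundant Spp1 probe it was 1.503, 0.31 and 1.15. Mouse 2 gave the smallest ratio in all 6 rows called higher, as it did in 437 of the 1040 rows called higher in the whole table. Vehicle library 2 was the highest vehicle library in 8 of the 11 tested rows, as it was in 3750 of all 9381 tested rows. The keratin pair varied less, with ratios of 2.07, 1.57 and 1.68 for the abundant Krt8 probe and 2.01, 1.47 and 1.58 for Krt18. These rows share libraries and are not independent of each other.

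**Figure D3:**
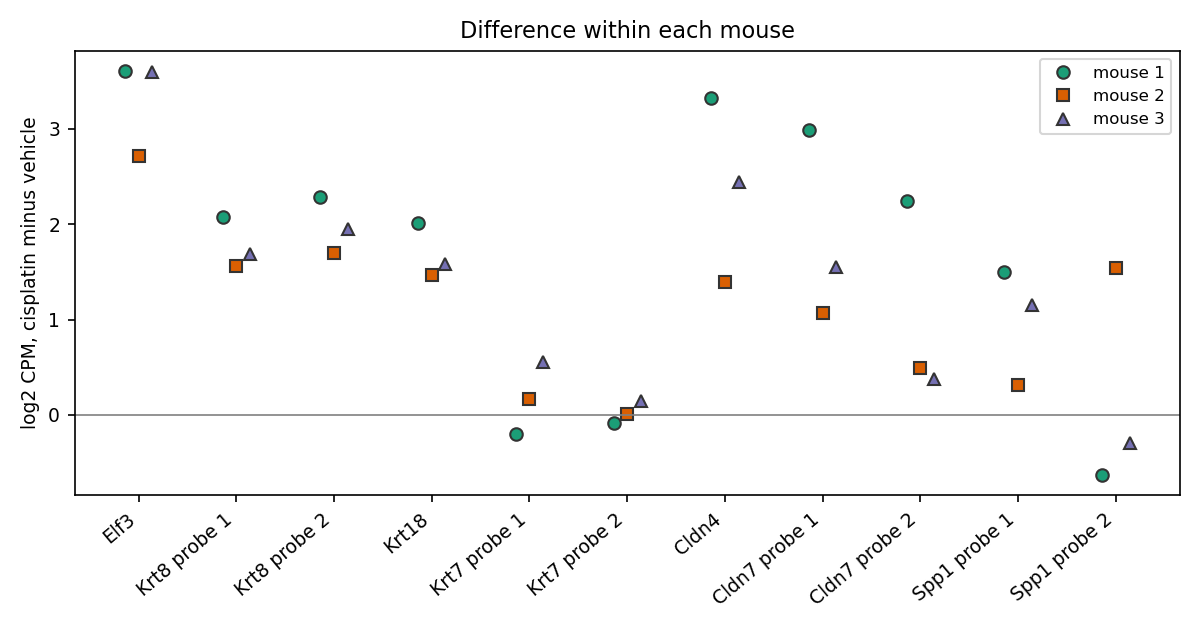
Log2 CPM, cisplatin minus vehicle, within each of the 3 mice for the 11 tested rows. Elf3, Krt8, Krt18, Cldn4 and the abundant Cldn7 and Spp1 probes were above 0 in every mouse, with Cldn4 at 1.39 to 3.32, while the Krt7 probes lay on both sides of 0.

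Over the 6 libraries log2 CPM of Elf3 correlated with that of the Krt8 probes at 0.981 and 0.993 (Pearson), with Krt18 at 0.957 and with Cldn4 at 0.971. With the Krt7 probes it correlated at 0.182 and 0.124. The rows share their libraries and the split into 2 treatments, which by itself gives high values to rows that differ between the groups. Outside the 9 genes, the tested rows most like Elf3 were Hspb6 (0.999), H2ac4 (0.999), Cdkn1a (0.998), Sdc4 (0.997) and Commd3 (0.994). Of these Cdkn1a codes for a cell cycle inhibitor induced by p53, and it had 43.7 CPM with vehicle and 951 with cisplatin. The rows most like the abundant Krt8 probe were Sdf2, Zfp688, Natd1, Dcxr and Tm6sf2, at 0.996 to 0.999.

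Other keratins gave almost no counts. Of 16 listed genes, 9 had 0 counts in all libraries for their most abundant probe and only Krt80 was tested (-0.38 ± 0.81, adjusted p = 0.779), while Krt222 had 7 cisplatin and 3 vehicle counts. Krt80 had opposite signs of its fold change without cisplatin library 3 (0.13) and without vehicle library 3 (0.095). Of 14 tested genes for proteins that anchor keratin filaments or form other filaments, 1 was higher and 0 lower, with a median of 0.24. Over all tested rows 11.1% were called higher and 13.9% lower, shares that stand beside this count and those of the lists below. The gene that rose was Lmna, for the nuclear lamins A and C, from 19.6 ± 4.77 to 78.1 ± 12.3 CPM (1.99 ± 0.37, adjusted p = 0.00175). The desmosome genes Dsp and Jup had 0.60 ± 0.26 (adjusted p = 0.109) and 0.65 ± 0.30 (adjusted p = 0.132), and the keratin linker Plec had 0.27 ± 0.42 (adjusted p = 0.685), or -0.16 without cisplatin library 1 and -0.099 with library totals alone. Vim, for the mesenchymal filament protein vimentin, had 0.017 ± 0.78 (adjusted p = 0.991). This low row was at -0.90, -0.21 or -0.25 when cisplatin library 2 or vehicle library 1 or 2 was left out, at 0.77 or 0.65 when vehicle library 3 or cisplatin library 1 was, and at -0.55 with library totals alone. Without cisplatin library 1 the list had 2 genes higher and 1 lower.

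Other tight junction genes went in both directions. Of 19 tested genes 4 rose and 5 fell, with a median of 0.071. Those that rose included the claudins Cldn11 (3.22 ± 0.94, adjusted p = 0.0228) and Cldn23 (3.06 ± 0.67, adjusted p = 0.00481), the junction linker Cgn (1.61 ± 0.35, adjusted p = 0.00474) and the adhesion molecule F11r (1.62 ± 0.54, adjusted p = 0.0398). Those that fell were scaffold and polarity genes, and all of them are long genes, as given below with the spans. Pard3 went from 33.6 ± 5.63 to 0.997 ± 1.08 CPM (-5.03 ± 0.77, adjusted p = 5.0e-04) and Magi1 from 53.1 ± 8.45 to 1.87 ± 2.54 CPM (-4.76 ± 0.70, adjusted p = 3.7e-04). Mpdz, Patj and Prkcz changed by -2.30 ± 0.71, -1.85 ± 0.44 and -1.81 ± 0.63 (adjusted p = 0.0288, 0.00827 and 0.0492). Tjp1, for the scaffold ZO-1, was not called (-0.87 ± 0.45, adjusted p = 0.181; called at -1.41 with library totals alone), and Ocln, for occludin, was not tested, at 38 cisplatin and 23 vehicle counts. Cldn23, Cgn, Mpdz, Patj and Prkcz, like Dsp and Jup, were named after their values were seen.

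Several of these calls were lost when a single library was left out. The calls over the whole table moved as well, from 2344 to between 1085 (without vehicle library 1) and 2538 (without cisplatin library 1). The call of Cldn11 held when cisplatin library 1 was left out and was lost with each other library (adjusted p = 0.0556 to 0.114), with a value of 3.81 when that was vehicle library 3. F11r lost its call without cisplatin library 2 or any vehicle library (adjusted p = 0.0708 to 0.172), with no filter (adjusted p = 0.137), with library totals alone (adjusted p = 0.169) and when the mouse was a block (adjusted p = 0.0830). For Mpdz the losses came with cisplatin library 3 or any vehicle library (adjusted p = 0.0547 to 0.171), and its value moved to -1.67 or -3.43 when cisplatin library 1 or 2 was left out. Among fits lacking 1 library, Prkcz was called only in that lacking cisplatin library 3, at -3.43, and not in the others (adjusted p = 0.102 to 0.179). It was also not called with RLE factors (adjusted p = 0.0608) or without the dominant rows (adjusted p = 0.0510). Patj lost its call with vehicle library 1 left out (adjusted p = 0.0568). Magi1 was at -6.63 without cisplatin library 2 and Pard3 at -6.02 without cisplatin library 3. Leaving out cisplatin library 2 or any vehicle library brought the genes that rose to 2, and leaving out vehicle library 1, 2 or 3 brought those that fell to 2, 3 and 3.

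Other ETS genes were called at about the share of all rows. Of 13 other ETS genes tested 1 rose and 2 fell, where 25.0% of all tested rows were called either way. Their median was 0.014. Ehf, an epithelial ETS factor like Elf3, had 18.1 ± 11.2 CPM with vehicle and 18.4 ± 15.2 with cisplatin (0.064 ± 0.66, adjusted p = 0.956). It was at -0.75 or 0.66 when cisplatin library 1 or vehicle library 2 was left out, at -0.14 or -0.24 when vehicle library 1 or 3 was, and at -0.23 with library totals alone. Elk4 rose (1.69 ± 0.47, adjusted p = 0.0187), and Gabpa (-3.27 ± 1.01, adjusted p = 0.0300) and Elk3 (-1.43 ± 0.42, adjusted p = 0.0225) fell. Elk4 was not called without cisplatin library 2 or vehicle library 2 or 3 (adjusted p = 0.0506 to 0.0863) or with library totals alone (adjusted p = 0.107), and Elk3 without cisplatin library 1 or 2 or vehicle library 1 or 3 (adjusted p = 0.0809 to 0.112). Gabpa was not called without cisplatin library 2 or any vehicle library (adjusted p = 0.0674 to 0.184) or with the mouse as a block (adjusted p = 0.0687) or limma-voom (adjusted p = 0.0580), and its value was -4.67 when cisplatin library 3 was left out. The list had 0 genes higher without cisplatin library 2 or vehicle library 2 or 3. It had 0 lower without cisplatin library 2 or vehicle library 1 or 3, 1 lower without cisplatin library 1 and 4 lower without cisplatin library 3.

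Of 15 tested genes of epithelial adhesion and identity 3 were higher and 1 lower, near the 25.0% of all tested rows called either way. Their median was 0.40. Klf4, a transcription factor of epithelial differentiation, rose from 5.60 ± 2.13 to 58.8 ± 27.2 CPM (3.39 ± 0.54, adjusted p = 6.4e-04). St14, for the surface protease matriptase, rose by 1.38 ± 0.36 (adjusted p = 0.0126) and Dsc2, for a desmosomal cadherin, by 1.34 ± 0.43 (adjusted p = 0.0360). Cdh1, for E-cadherin, went from 242 ± 75.1 to 125 ± 13.3 CPM (-0.96 ± 0.30, adjusted p = 0.0305). Among fits lacking 1 library, Cdh1 was called only in that lacking vehicle library 1 (otherwise adjusted p = 0.0629 to 0.107), the call of Dsc2 was lost without cisplatin library 2 or 3 or vehicle library 1 or 3 (adjusted p = 0.0787 to 0.169) and that of St14 without vehicle library 3 (adjusted p = 0.0894). With library totals alone St14 (adjusted p = 0.119) and Dsc2 (adjusted p = 0.221) were not called, nor was Dsc2 with no filter (adjusted p = 0.123). The list had 1 gene higher without vehicle library 3 and 0 lower without cisplatin library 1 or vehicle library 2 or 3. The Epcam row had 0 counts in all 6 libraries. Slc30a8, a zinc transporter gene of beta cells, had 3 counts in all, so a row near 0 need not mean that its RNA is absent.

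Of the osteopontin receptors 4 were tested, of which 0 rose and 2 fell, with a median of -1.30. All 4 are long genes, and rows of long genes had lower values over the whole table, as given below with the spans. The integrin gene Itga9 changed by -3.43 ± 0.75 (adjusted p = 0.00503) and Itgb5 by -1.69 ± 0.49 (adjusted p = 0.0229), while Cd44 was not called (-0.90 ± 0.41, adjusted p = 0.122), except with library totals alone (-1.35). Itga9 lost its call without vehicle library 1 (adjusted p = 0.0748) and with limma-voom (adjusted p = 0.0680), and its value was -4.06 when cisplatin library 2 was left out. Itgb5 was not called without cisplatin library 1 or 2 or vehicle library 1 or 3 (adjusted p = 0.0526 to 0.142). The list had 1 gene lower without cisplatin library 1 or 2 or vehicle library 3, and 0 without vehicle library 1. Of 7 tested genes linked with injured epithelium 2 rose and 0 fell, with a median of 0.39. Sfn, an epithelial 14-3-3 protein and p53 target, rose from 5.31 ± 1.24 to 78.5 ± 19.4 CPM (3.87 ± 0.44, adjusted p = 5.9e-05), and the chemokine gene Cxcl16 from 121 ± 34.0 to 456 ± 184 CPM (1.91 ± 0.34, adjusted p = 0.00128).

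**Figure D4:**
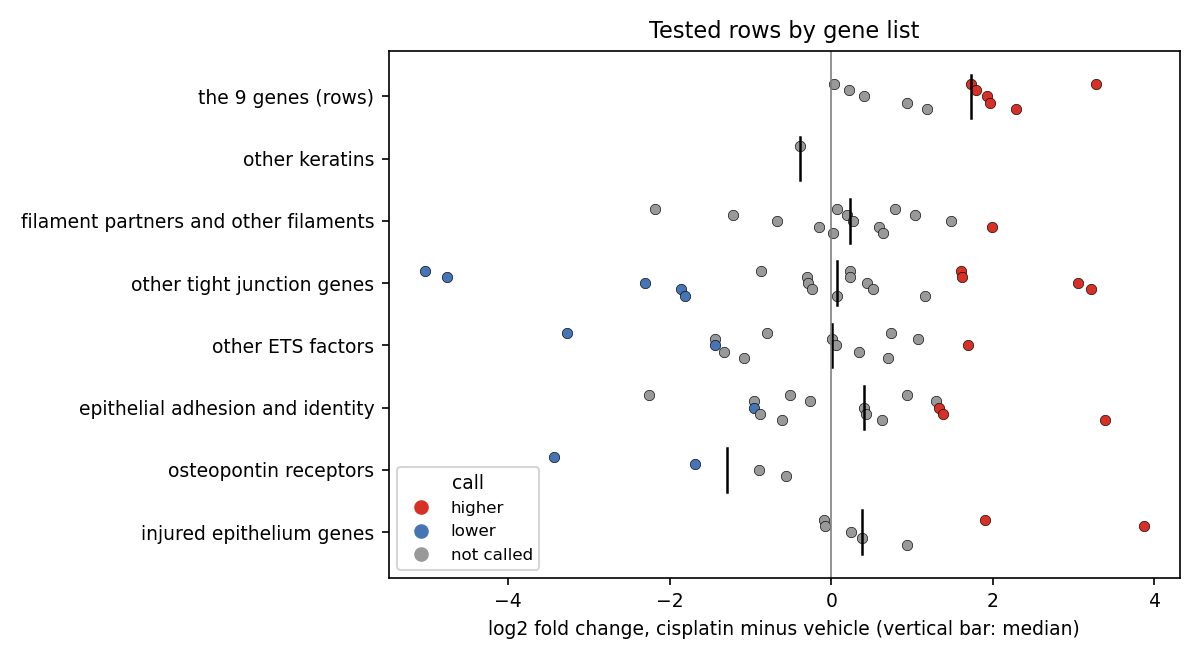
Log2 fold change of the tested rows of the 9 genes and of the most abundant tested probe of each gene in 7 lists, with a vertical bar at each median; red rows were called higher, blue rows lower and grey rows neither. The median was 1.73 for the 9 genes, 0.071 for other tight junction genes and -1.30 for the 4 tested osteopontin receptors, which are long genes.

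The listed endocrine genes, led by Ins1 and Ins2, summed to 82475 to 163604 CPM with cisplatin and 129005 to 243599 with vehicle, so the groups overlapped. Of 13 tested endocrine genes 0 rose and 6 fell, with a median of -1.44, and neither Ins1 nor Ins2 was called. None of the 7 duct, 1 acinar and 7 macrophage genes tested was called higher. The acinar gene was Bhlha15 (0.88 ± 0.84, adjusted p = 0.489), and with 1 tested gene the acinar list could hardly give a call. The values of these lists are given beside those of the 9 genes, and their part in the differences was not tested. Without the 9 genes, 12 duct markers summed to 208 to 263 CPM with cisplatin and 311 to 466 with vehicle, with 0 of 7 tested duct genes higher (Krt7 and Spp1 included) and 2 lower. Those were Prom1 (-3.02 ± 0.58, adjusted p = 0.00227, or -2.41 without cisplatin library 1) and Slc4a4 (-3.36 ± 0.56, adjusted p = 9.2e-04, or -4.27 without cisplatin library 2). Prom1 went from a mean of 68.8 to 8.66 CPM and Slc4a4 from 66.3 to 6.47, so they held much of the difference between the duct sums. Both are long genes, as given below with the spans. Among duct genes not called, Ambp had -0.40 ± 0.64 (adjusted p = 0.698) and Dcdc2a 0.64 ± 0.41 (adjusted p = 0.286). The duct and progenitor factor Sox9 had 7 counts, all in cisplatin library 3. Onecut1 and Car2 were at 0 in all libraries. Acinar markers, led by Bhlha15 and Cela1, summed to 12.9 to 47.4 CPM with cisplatin, highest in library 1, and 12.6 to 18.9 with vehicle, and Prss2, Cel, Pnlip and Rbpjl were at 0 throughout. Mesothelial markers other than Krt19, led by Msln and Gpm6a, summed to 0.846 to 9.51 and 5.93 to 18.5 CPM, with Upk3b, Upk1b and Lrrn4 at 0. Macrophage markers, led by H2-Aa and C1qb, summed to 27.1 to 122 CPM with cisplatin and 181 to 329 with vehicle, lower in every cisplatin library, and 5 of 7 tested genes fell and 0 rose. Endothelial markers, led by Esam and Kdr, summed to 103 to 150.1 CPM with cisplatin and 77.0 to 122 with vehicle, but the 3 tested genes went in opposite directions. Esam rose (1.19 ± 0.40, adjusted p = 0.0457), while Kdr (-3.35 ± 0.65, adjusted p = 0.00241, or -4.39 without cisplatin library 1) and Eng (-2.54 ± 0.71, adjusted p = 0.0184) fell. Among fits lacking 1 library, Esam was called only in that lacking cisplatin library 1 (otherwise adjusted p = 0.116 to 0.133), and it was not called with library totals alone, with no filter, after thinning or with the mouse as a block (adjusted p = 0.0514 to 0.315). Stromal markers, led by Col1a1 and Rgs5, summed to 38.1 to 87.9 CPM with cisplatin and 57.5 to 241 with vehicle, and of 4 tested genes 1 fell, Rgs5 (-4.74 ± 0.74, adjusted p = 5.9e-04, or -6.06 without cisplatin library 2), and 0 rose. Eng, Prom1, Slc4a4, Ambp, Dcdc2a and Slc30a8 were named after their values were seen.

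The 9 genes are short, which the choice of genes did not use. Their genomic spans in RefSeq were 1.26 kb for Cldn3 to 15.4 kb for Krt7, with Elf3 at 4.90, Krt8 at 7.63 and Krt18 at 3.81 kb. Over all tested rows the fold change moved with span. Rows whose genes have a span in the range of the 9 genes, 3215 in all, had a median log2 fold change of 0.54, and 21.5% were called higher and 2.58% lower. The 5949 rows of longer genes had a median of -0.45, with 4.84% called higher and 20.4% lower. Among the tight junction genes that fell, Pard3, Magi1, Patj, Mpdz and Prkcz span 549, 608, 324, 164 and 101 kb. Of those that rose, Cldn11 and Cldn23 span 14.4 and 1.85 kb, and Cgn and F11r span 27.7 and 27.0 kb. With all rows in 10 equal bins of span, the upper quartile was 1.36 in the shortest bin and 1.15 in the next. Of the tested rows of the 9 genes in those bins, the 6 called higher lay above these quartiles, while Cldn7_30337 (1.19), Spp1_30025 (0.93) and Spp1_63793 (0.41) lay below. The Krt7 rows lay below the median of theirs, 0.36. Since the genes were chosen for their difference, this is a description only. The second longest bin had a median of -1.06 with 31.0% called lower, and the longest -2.15 with 63.0%. The 4 tested osteopontin receptors span 84.6 to 294 kb, with Itgb5 at 120 kb in the former bin and Itga9 in the latter. The duct genes Prom1 (108 kb) and Slc4a4 (446 kb) lay in the former and the latter bin. The part of span in the differences of these genes and of the 9 genes was not tested.

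**Figure D5:**
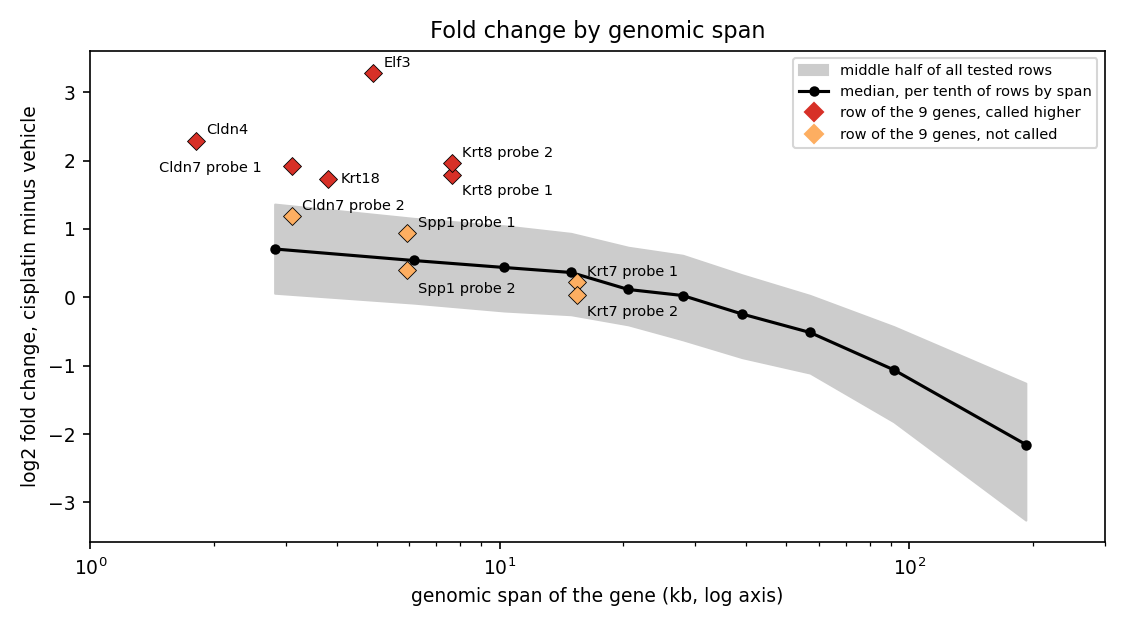
Log2 fold change, cisplatin minus vehicle, against genomic span (kb, log axis); the black line is the median of all tested rows in 10 equal bins of span and the grey band their middle quartiles, and diamonds are rows of the 9 genes. The median went from 0.71 in the shortest bin to -2.15 in the longest, and Elf3 lay at 3.28.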

How the data were processed

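Values in the deposited table are whole-number counts for each probe in each library, as the authors left them. TempO-Seq libraries were made from islet lysates of 3 cisplatin and 3 vehicle cultures, per the labels' protocols. DESeq2 1.44.0, STAR 2.7.10b and fastp 0.23.2 appear, with no roles, in the submitters' processing notes. Build and counting rule: not given in the sources used here. Libraries held 1116916 to 2272276 counts.

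The 9 genes and the lists were chosen with earlier results of these data known. Rows were filtered with edgeR 4.0.16 (R 4.3.3; filterByExpr, minimum count 10), scaled with TMM factors and tested over all 9381 rows with the quasi-likelihood F-test (robust, treatment only), with Benjamini-Hochberg adjustment. Each standard error is the log2 fold change over the root of F, and log2 CPM used a prior count of 2. A listed gene was represented by its most abundant probe. Named were all 9 genes, up to 3 called genes per list with the largest change and a mean of at least 5 CPM, the 2 most abundant where none was called, the 2 most abundant and the absent genes of each marker list, the 5 rows most like Elf3 or Krt8, and Epcam, Cdh1, Sox9, Vim, Plec, Tjp1, Ocln, F11r, Ehf and Cd44. A single gene that falls under this rule is not reported here. Counting intervals are exact at 95% and cover counting error only. With 3 mice, p-values speak to the spread among these libraries. Pairing follows from the labels, where a cisplatin and a vehicle library carry 1 animal identifier. Their deviations from the group means correlated at -0.12, 0.03 and 0.22. The reported fit has no mouse term, and the mouse block was an alternative. No 2 libraries agreed within sampling noise (chi-square per degree of freedom of 9.33 or more). The scripts were tested on simulated data. There the fit called 8 of 89 tested rows changed 2-fold, 45 of 85 changed 4-fold and 2 of 8454 unchanged rows. A row that was not called may therefore still differ. In the simulation a much smaller share of rows was changed than the 25.0% of tested rows called in these data. The adjustment was stricter there, so the shares called may be too low for the reported fit. Alternatives were RLE and upper quartile factors, library totals, other filters, DESeq2 1.42.0, limma-voom (limma 3.58.1), summed probes, thinning, a fit without dominant rows, and fits without each library or mouse.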

Additional observations from a re-analysis of the deposited data

How the results depend on the processing

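Of the rows of the 9 genes, 5 to 7 were called higher and 0 lower under all 20 alternatives. The number tested was 11 in the reported fit, 15 with no filter, 7 with summed probes and 10 to 12 in the others, and with the mouse as a replicate block 7 were higher. The row added by the block was Spp1_30025 (1.00), which was called under 7 of the 20 alternatives. The others were DESeq2 (0.97), limma-voom (1.05), summed probes (0.87 for the gene), thinning (0.99) and the fits without vehicle library 2 (1.32) or mouse 2 (1.34). Some values near 0 took the opposite sign: with library totals alone Krt7_76598 (-0.31), Krt7_30903 (-0.46), Spp1_63793 (-0.15), Vim (-0.55), Plec (-0.099) and Ehf (-0.23), with no filter Krt7_30903 (-0.077), Vim (-0.098) and Ehf (-0.033), after thinning Krt7_30903 (-0.025) and Vim (-0.040), with limma-voom Vim (-0.71), and with the replicate block Vim (-0.35) and Ehf (-0.11). The cause was not tested. Without single libraries the values ran from -0.14 to 0.49 for Krt7_76598, -0.035 to 0.25 for Krt7_30903, -0.24 to 1.45 for Spp1_63793, -0.90 to 0.13 for Krt80, -0.90 to 0.77 for Vim, -0.16 to 0.52 for Plec and -0.75 to 0.66 for Ehf. Without both libraries of a mouse they ran from -0.040 to 0.44, -0.040 to 0.10, -0.46 to 0.53, -1.07 to 0.61, -1.16 to 0.81, -0.17 to 0.48 and -1.01 to 0.86 for the same rows in that order.

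With library totals alone, which moves all rows down, 2 filament genes were lower, 0 other ETS genes higher, 1 epithelial adhesion gene higher and 5 lower, and 4 osteopontin receptors lower. The count of filament genes lower was 1 with no filter, DESeq2, summed probes or thinning, and 2 filament genes were higher after thinning. With limma-voom 1 osteopontin receptor was lower. Without single libraries or mice the counts ran from 0 to 5 higher and 2 to 4 lower for tight junction genes, 0 to 1 higher and 0 to 4 lower for ETS genes, 1 to 3 higher and 0 to 1 lower for epithelial adhesion genes, 1 to 2 higher and 0 to 1 lower for filament genes, and 0 to 2 lower for osteopontin receptors. The block also ended the calls of F11r, Gabpa and Esam and changed no other call of a named row. Over all rows 2344 were called in the reported fit. The number was 2538, 2034 and 2181 without cisplatin library 1, 2 and 3, and 1085, 1893 and 1321 without vehicle library 1, 2 and 3. Without mouse 1, 2 and 3 it was 1350, 1511 and 1021. Fewer samples were fitted in all of these, and why the numbers differed was not tested. Rows with few counts, such as Krt19 and Cldn3, limit what could be detected. On simulated data, where a smaller share of rows was changed than was called here, most 2-fold changes were not called.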
